A study of Mus musculus with 12 samples.

Results

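Cumulus cells, the granulosa cells that surround the oocyte, were compared between mice labelled control and mice labelled Sphk1/2 knockout. Sphk1 and Sphk2 are sphingosine kinases. All transcripts with a mean of at least 0.5 FPKM (fragments per kilobase of exon, scaled to library size) in either genotype were taken, which gave 12205 of the 33137 genes listed for cumulus cells. There were 3 libraries per genotype, 6 of the 12 libraries in the series, all from the time point of 2 h post-hCG. The authors describe the controls as WT and the knockouts as Sphk1/2gc-/-. WT mice were C57/BL6. The Sphk1/2gc-/- mice were Sphk1-/-; Sphk2 fl/fl; Fshr-Cre, so that Sphk1 was null in every cell of the animal and Sphk2 was deleted where Fshr-Cre, a Cre driven by the FSH receptor gene, was active. The WT animals were bought and the mutants were bred, so strain background and genotype cannot be told apart. All females were immature and had received eCG, a gonadotropin that grows follicles, and then hCG, which acts on the LH receptor. Whether the libraries come from separate animals or from pools is not stated, so p-values measure only the spread between these libraries.

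After the LH surge, mural granulosa cells release the EGF-like peptides Areg, Ereg and Btc. These act on EGFR of cumulus cells, switch on the MAP kinase cascade and start the synthesis of a hyaluronan matrix that is cross-linked by Tnfaip6, Ptx3 and the heavy chains of inter-alpha-trypsin inhibitor. Before the surge, granulosa cells make estradiol through Cyp19a1 and Hsd17b1, whereas after it they turn to progesterone. Sphingosine kinases produce sphingosine-1-phosphate (S1P), a lipid that acts on its own receptors and inside the cell.

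The targeted genes were examined first. Sphk1 (chromosome 11, 116530925 to 116536674) had 7, 6 and 8 reads in WT libraries 1 to 3 and 7, 43 and 51 reads in the libraries labelled Sphk1/2 knockout. Its levels were 0.0911, 0.0699 and 0.0954 FPKM against 0.0778, 0.456 and 0.557 FPKM. It was thus higher in 2 of the 3 libraries whose label says that it is missing, and its means lay under the limit of 0.5 FPKM for testing. Sphk2 (chromosome 7, 45709467 to 45718002) was at 0.403, 0.602 and 0.520 FPKM in WT and at 0.434, 0.572 and 0.752 FPKM in the labelled knockout libraries, which overlap (log2 fold change 0.07, SE 0.141, limma adjusted p = 0.751). Both values cover whole genes, including exons that a deletion leaves in place. Reads may also belong to neighbours with shared exon bases, Gm29292 at Sphk1, and Dbp and Rpl18 at Sphk2. The groups are therefore those of the labels alone, and KO library means a library labelled Sphk1/2 knockout in what follows.

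The libraries held 16100364 to 17976666 reads in WT and 18835375 to 19761604 in KO. Across 12205 transcripts of log2(FPKM + 1), the WT libraries had pairwise correlations of 0.980 to 0.984 and KO libraries 2 and 3 of 0.986. KO library 1 stood apart, with 0.969 and 0.970 to the other KO libraries and 0.941 to 0.959 to the WT libraries. Each of the 8 cumulus markers reached 0.5 FPKM in some library. Amh was at only 0.112 and 0.102 FPKM in WT libraries 1 and 3. The sum of the cumulus markers was 380 to 810 FPKM in WT against 1165 to 1455 in KO, with Ptx3 and Tnfaip6 the largest members in every library. The 8 granulosa markers summed to 2696 to 3732 FPKM in WT and 2364 to 2696 in KO. Inha alone was at 1213, 1562 and 2114 against 1772, 1871 and 1966 FPKM. By the limits given below, 3 cumulus markers, Ptx3, Tnfaip6 and Slc38a3, rose and 0 fell. Slc38a3 was at 0.341, 1.66 and 1.01 FPKM in WT against 2.54, 2.18 and 3.23 FPKM in KO. It did not pass without WT library 1 or 3 or KO library 2 or 3 (limma adjusted p of 0.061 to 0.117). Has2, Ptgs2, Areg, Aard and Amh overlapped between genotypes. Of the granulosa markers 5 fell and 0 rose. Of 11 oocyte markers, 5 were under 0.5 FPKM in every library, and the sum was 2.72 to 5.85 FPKM in WT against 1.62 to 2.37 in KO. Endothelial and epithelial markers summed to no more than 2.09 and 1.97 FPKM in any library. Markers of mural granulosa cells summed to 28.1 to 73.2 FPKM in WT against 24.2 to 45.3 in KO, and those of stroma and pericytes to 8.77 to 40.7 against 7.83 to 25.7. Among the latter, Acta2 had the highest level and overlapped (23.5, 5.65 and 12.8 against 5.72, 21.1 and 15.1 FPKM). Lum (4.9, 0.773 and 2.07 against 0.455, 0.434 and 0.213 FPKM), Col1a1 and Col3a1 lay lower in every KO library. Pdgfra and Pdgfrb lay higher in every KO library. The part of such cells in the results was not tested.

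Transcripts are said to have risen or fallen at a limma adjusted p of 0.05 or less (Benjamini-Hochberg over the 12205 transcripts) and to be called where the change was also 2-fold or more. In KO, 1179 transcripts rose (9.66%) and 1546 fell (12.7%), and of these 511 were called higher (4.19%) and 470 lower (3.85%). The KO libraries all lay above the WT libraries for 18.2% of the transcripts and all below them for 24.1%. Without KO library 1, 651 were called higher and 654 lower, and leaving out any other library gave 391 to 571 higher and 350 to 529 lower. The median change of all transcripts was −0.06 on the log2 scale. Of the 981 called transcripts, 146 belong to lists for the cell cycle, cholesterol, glycolysis and interferon, which are left aside here. The other 835 (473 higher, 362 lower) include many of the genes described next. Some genes of the lists left aside return below as members of another list, such as Cd74 and H2-Aa of interferon with the MHC genes. All fold changes are KO over WT on the log2(FPKM + 1) scale, on which changes of weakly expressed transcripts appear smaller than they are.

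**Figure D1:**
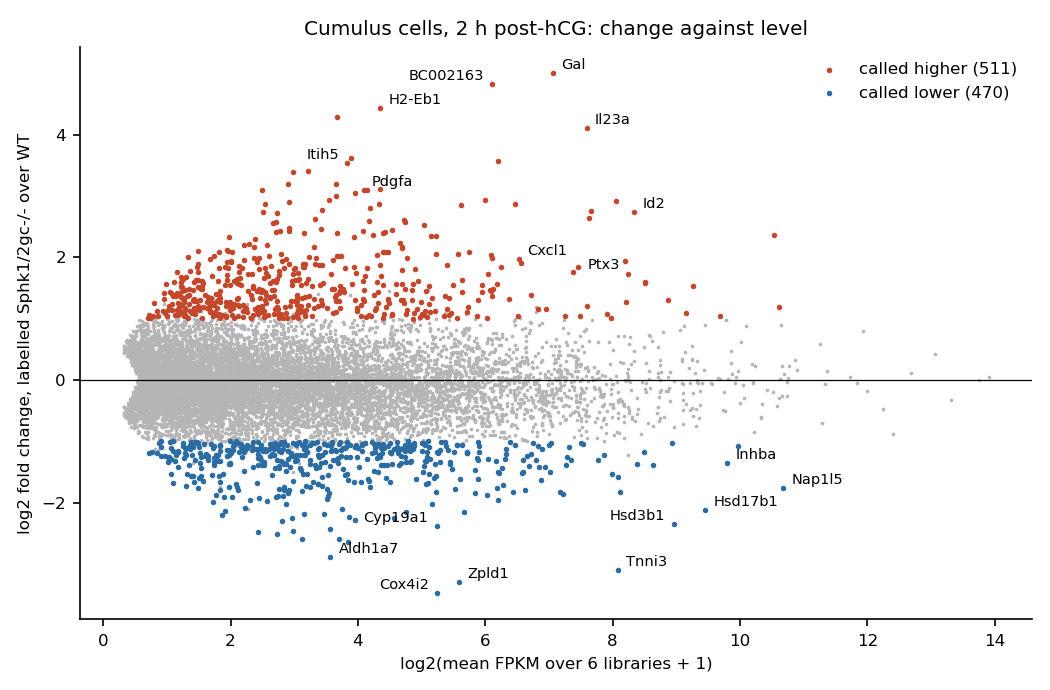
Log2 fold change (KO over WT) of each of the 12205 transcripts against log2(mean FPKM + 1) over the 6 cumulus libraries. Red points are the 511 called higher, blue points the 470 called lower and grey points the rest. Gal and BC002163 lie at the top with changes of 5.00 and 4.82, and Cox4i2 and Zpld1 at the bottom with −3.48 and −3.30.

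Ptx3 and Tnfaip6, for proteins that cross-link the cumulus matrix, rose in KO, while Has2, for the enzyme that makes hyaluronan, did not pass the test. Of 18 matrix transcripts listed, 12 were tested, of which 6 rose and 1 fell. Cd44 and Itih2 entered the test through the KO mean alone, and of the 10 with at least 0.5 FPKM in both genotypes 4 rose and 1 fell. Ptx3, the pentraxin that organises the matrix, was at 124, 91.3 and 218 FPKM in WT and at 526, 337 and 522 FPKM in KO (log2 fold change 1.73, SE 0.321, limma adjusted p = 0.00838). Tnfaip6, which transfers heavy chains onto hyaluronan, was at 159, 122 and 282 FPKM against 425, 576 and 606 FPKM (1.58, SE 0.3, adjusted p = 0.00937). For both, each KO library lay above each WT library. The hyaluronan receptor Cd44 rose from 0.348, 0.222 and 0.328 to 4.90, 4.71 and 7.13 FPKM. Of the heavy chain family, Itih5 rose from 1.2, 1.10 and 0.980 to 12.1, 33.5 and 30.7 FPKM and Itih2 from 0.0937, 0.503 and 0.189 to 2.10, 5.92 and 5.16 FPKM. Pcsk5, a proprotein convertase, was called as well (1.13, adjusted p = 0.00312), and Vcan, a large proteoglycan, fell (−0.73, adjusted p = 0.0203, but 0.0755 without WT library 1, 0.0586 without WT library 3 and 0.0578 without KO library 3); these genes were chosen after their values were seen. Has2, the hyaluronan synthase, was at 59.8, 31.9 and 74.6 FPKM in WT against 62.0, 88.3 and 89.6 FPKM in KO (0.58, adjusted p = 0.199). Ptgs2, the cyclooxygenase of the ovulatory follicle, was at 114, 64.1 and 127 against 98.3, 75.6 and 115 FPKM (−0.04, adjusted p = 0.930). The values of these last transcripts overlapped between genotypes. Among 17 transcripts of prostaglandin metabolism, 1 rose and 2 fell (4 and 4 with limma-voom on the recovered reads): Ptges, the PGE synthase, rose (1.2, adjusted p = 0.0107), and Hpgd, which breaks prostaglandins down, fell from 463, 430 and 315 to 198, 129 and 90.8 FPKM. The shares were 5.88% and 11.8%, against 9.66% and 12.7% of all transcripts.

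Some of the sugars from which hyaluronan and other glycans are built pass through the hexosamine pathway. Of 38 transcripts for this pathway and for proteoglycans, 11 rose and 6 fell, with a median change of 0.18. Gfpt2, the entry enzyme, was at 29.5, 30.7 and 59.6 FPKM in WT against 136, 133 and 169 FPKM in KO (1.91, SE 0.269, limma adjusted p = 0.00337). Ugdh, which makes UDP-glucuronate and was chosen after its values were seen, rose by 1.14 (adjusted p = 0.00575). The membrane proteoglycan Sdc1 rose from 13.8, 16.5 and 32.2 to 181, 100 and 181 FPKM and Sdc4 from 17.5, 25.9 and 27.5 to 64.8, 73.8 and 83.5 FPKM. Ext1, a heparan sulfate polymerase, and the glypican Gpc3 fell (−1.03 and −1.11). The promoters of Tnfaip6 and Gfpt2 are shown because both transcripts rose together and both windows hold a match to the AP-1 motif TGANTCA, the binding site of Fos and Jun proteins, which is in capitals. RefSeq windows (GRCm38.p6) run from 250 bases before to 50 after the transcript start, are written 5′ to 3′ and were searched on both strands.
Tnfaip6 (chr2:52037863-52038162, plus strand): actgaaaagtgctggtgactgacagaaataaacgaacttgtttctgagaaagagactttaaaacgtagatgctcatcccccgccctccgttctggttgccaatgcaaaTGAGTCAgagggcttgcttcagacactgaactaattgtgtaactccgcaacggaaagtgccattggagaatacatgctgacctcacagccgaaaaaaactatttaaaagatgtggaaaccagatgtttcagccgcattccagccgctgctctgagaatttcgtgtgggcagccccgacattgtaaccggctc
Gfpt2 (chr11:49793905-49794204, plus strand): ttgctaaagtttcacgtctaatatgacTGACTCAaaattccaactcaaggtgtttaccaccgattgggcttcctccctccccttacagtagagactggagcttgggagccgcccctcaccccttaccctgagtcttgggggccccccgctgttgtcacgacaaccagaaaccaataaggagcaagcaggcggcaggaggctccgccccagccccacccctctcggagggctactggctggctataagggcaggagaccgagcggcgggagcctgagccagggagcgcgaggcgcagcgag
Counted from the transcript start, the match begins at position −142 in Tnfaip6 and −223 in Gfpt2, and 7.81% of all 32851 windows hold one. Of 18 motifs searched, AP-1 and the CArG box shown with the actin genes were chosen after the matches were seen. Only 68.7% of the transcripts called higher and 67.4% of those called lower have a window, so a comparison of motif shares between these groups would be void and none is given.

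The EGF-like ligands Areg, Ereg and Btc overlapped between the genotypes, whereas 2 feedback inhibitors of EGFR and MAP kinase signaling rose in KO. Areg was at 85.9, 43.4 and 93.5 FPKM in WT against 50.1, 64.5 and 90.8 FPKM in KO (−0.08, limma adjusted p = 0.877). Ereg had 32.8, 13 and 26.0 against 16.1, 21.6 and 31.9 FPKM and Btc 14.6, 10.6 and 20.8 against 45.0, 18.3 and 21.6 FPKM, with adjusted p of 0.998 and 0.141. The receptor Egfr was at 3.26, 1.89 and 2.03 FPKM in WT against 1.35, 1.34 and 1.24 FPKM in KO, without overlap, but did not pass the test (−0.53, adjusted p = 0.0624). Of 17 transcripts of this group, 6 rose, all of them 2-fold or more, and 0 fell (2 with limma-voom). Errfi1, which binds and silences EGFR, rose from 66.6, 56.7 and 102 to 213, 226 and 381 FPKM (1.85, SE 0.284, adjusted p = 0.00455). Dusp5, a phosphatase that inactivates ERK, rose from 6.86, 4.41 and 11.1 to 19.0, 39.1 and 64.9 FPKM. The ligand Hbegf rose from 2.02, 3.12 and 2.93 to 8.90, 12.0 and 18.0 FPKM.

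Of 26 immediate early and associated transcription factors, 8 rose (14 with limma-voom) and 0 fell, with a median change of 0.83. Fosl1, a partner of Jun in AP-1, rose from 2.00, 2.25 and 5.30 to 14.6, 20.2 and 25.6 FPKM (2.39, SE 0.311, limma adjusted p = 0.00252). Runx1, a factor of the ovulatory granulosa cell, rose from 6.28, 7.57 and 7.49 to 26.9, 34.0 and 40.9 FPKM (2.09, SE 0.184). Klf4 was called too (1.83, adjusted p = 0.0358), but its call was lost without WT library 1 or 2 or KO library 2 or 3, with adjusted p of 0.0976 to 0.121. Egr1, the best known of these genes, was at 165, 138 and 150 FPKM in WT against 71.9, 150 and 170 FPKM in KO, where KO library 1 alone lay below WT (−0.30, adjusted p = 0.506). The list was lowest in WT library 2, with a mean log2(FPKM + 1) of 3.50, and WT library 3 (4.35) lay above KO library 1 (4.27), while KO libraries 2 and 3 were at 4.99 and 5.00.

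**Figure D2:**
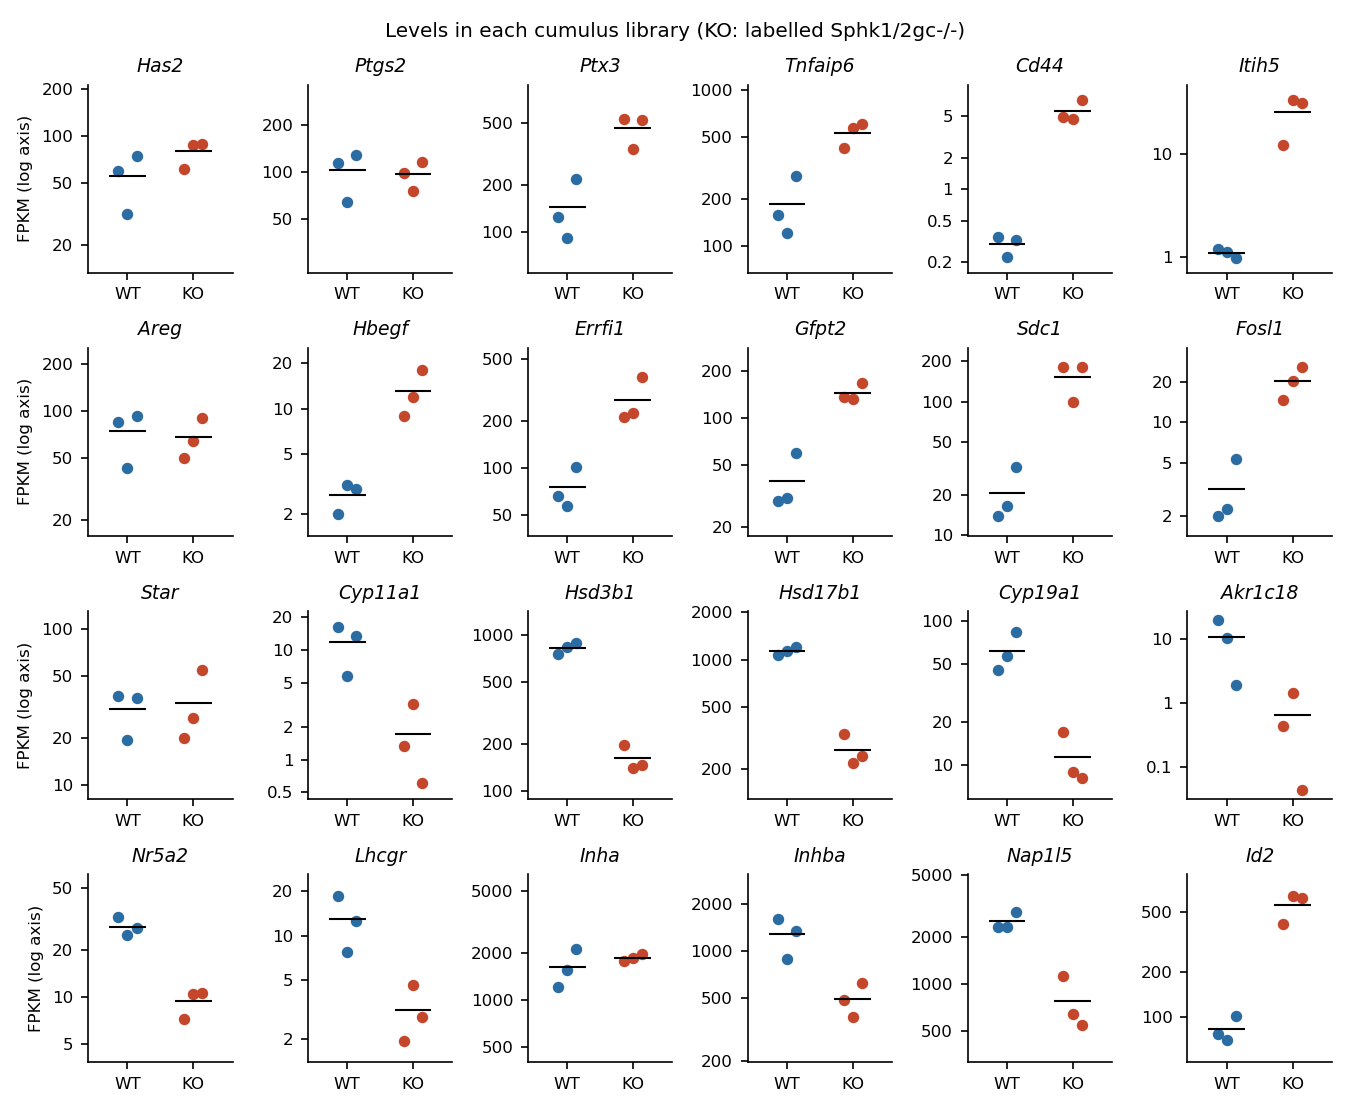
FPKM of 24 transcripts in each cumulus library on log axes, with WT in blue, KO in red and the mean of each genotype as a black line. Ptx3, Tnfaip6, Cd44, Errfi1 and Gfpt2 lie higher in every KO library than in any WT library, Hsd3b1, Hsd17b1 and Cyp19a1 lie lower, and Has2, Ptgs2, Areg, Star and Inha overlap.

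Several steroid synthesis enzymes, from the side-chain cleavage step to aromatase, fell in KO. Of 17 transcripts, 9 fell, each 2-fold or more, and 1 rose, with a median change of −1.24. Cyp11a1, which makes pregnenolone, was at 16.3, 5.86 and 13.5 FPKM in WT against 1.33, 3.20 and 0.608 FPKM in KO (−2.26, SE 0.420, limma adjusted p = 0.00869). Hsd3b1, which makes progesterone, was at 757, 837 and 897 FPKM against 198, 142 and 148 FPKM (−2.36, SE 0.172, adjusted p = 0.00035). Hsd17b1, for estradiol, was at 1076, 1131 and 1198 FPKM against 333, 218 and 240 FPKM (−2.13, SE 0.183, adjusted p = 0.000616), and Cyp19a1, the aromatase, at 45.3, 57.4 and 83.7 FPKM against 16.9, 8.90 and 8.11 FPKM (−2.38, SE 0.306, adjusted p = 0.00236). None of these overlapped between genotypes. Akr1c18, which inactivates progesterone, had 19.6, 10.5 and 1.89 FPKM in WT against 0.440, 1.43 and 0.0432 FPKM in KO (−2.52, adjusted p = 0.0278), but lost its call without WT library 1 or 2 or KO library 3 (adjusted p of 0.086, 0.0864 and 0.0988). Nr5a2, a nuclear receptor that drives several of these genes, fell from 32.3, 25.0 and 27.5 to 7.22, 10.5 and 10.6 FPKM. Star, which brings cholesterol into mitochondria, overlapped at 37.1, 19.4 and 35.8 against 19.8, 26.9 and 54.0 FPKM (0.06, adjusted p = 0.932). Por, the electron donor of microsomal P450 enzymes, was the member that rose (1.06, adjusted p = 0.0137, but 0.0507, 0.0528 and 0.0555 without WT library 1, WT library 2 and KO library 3). The theca marker list, which shares Star, Cyp11a1 and Lhcgr with these genes, summed to 43.1 to 99.5 FPKM in WT against 28.4 to 65.1 in KO. Of its 5 members tested, 3 fell and 0 rose. Cyp17a1, another member, was at 26.2, 9.45 and 18.1 FPKM in WT against 4.44, 8.34 and 7.03 FPKM in KO, without overlap. The part of theca cells in the result was not tested. Fewer cells of a type and less RNA per cell cannot be told apart in such libraries.

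Of 28 transcripts that mark granulosa cells, 10 fell and 1 rose, with a median change of −0.11. Inhba, the subunit of activin A, was at 1606, 898 and 1347 FPKM in WT against 489, 378 and 628 FPKM in KO (−1.35, SE 0.259, limma adjusted p = 0.00956), and Inhbb, chosen after its values were seen, fell by 1.42 on the log2 scale (adjusted p = 0.00399). The inhibin alpha subunit Inha overlapped at 1213, 1562 and 2114 against 1772, 1871 and 1966 FPKM. Nap1l5 fell from 2325, 2297 and 2897 to 1130, 641 and 545 FPKM and Kctd14 from 18.2, 31.6 and 13.5 to 5.33, 1.22 and 1.95 FPKM. The LH receptor Lhcgr fell from 18.7, 7.71 and 12.6 to 1.93, 4.62 and 2.82 FPKM (−1.74, adjusted p = 0.00933), and Prkar2b, a regulatory subunit of protein kinase A, from 207, 165 and 202 to 72.7, 66.3 and 61.1 FPKM. The FSH receptor Fshr and the transcription factor Foxl2 passed only narrowly (adjusted p = 0.0391 and 0.0457). Fshr did not pass without any 1 of the libraries other than KO library 1 (adjusted p of 0.0778 to 0.132), and Foxl2 did not pass without WT library 1 or 2 or KO library 2 or 3 (0.101 to 0.155). Esr2, Gja1 and Npr2, for the estrogen receptor beta, connexin 43 and the receptor of C-type natriuretic peptide, had changes of −0.05, −0.07 and −0.01 with adjusted p of 0.847, 0.784 and 0.983. Of 4 mural granulosa markers tested 2 fell, and these are Lhcgr and Cyp11a1 themselves. The 8 luteal markers, which include Lhcgr, Hsd3b1, Star and Akr1c18, summed to 883 to 995 FPKM in WT against 233 to 282 in KO. Hsd3b1 made up most of these sums, at 757, 837 and 897 FPKM in WT against 198, 142 and 148 FPKM in KO. Of the 8 markers 4 fell and 1, Parm1, rose, and of the 7 with at least 0.5 FPKM in both genotypes 3 fell. Parm1 went from 13.9, 11.0 and 16.7 to 40.9, 44.4 and 42.4 FPKM, and Star and Sfrp4 overlapped. The part of the makeup of the samples in these results was not tested.

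Oocyte-derived TGF-beta family ligands signal to cumulus cells through SMAD proteins, of which Id genes are classic targets. Of 29 transcripts of this pathway 7 rose and 3 fell, with a median change of 0.33. Id2 was at 77.7, 70.0 and 102 FPKM in WT against 418, 641 and 624 FPKM in KO (2.73, SE 0.219, limma adjusted p = 0.000467). Id1 rose from 29.8, 61.5 and 49.9 to 87.1, 156 and 109 FPKM, with an adjusted p of 0.0176 that was 0.055, 0.0553 and 0.0572 without WT library 1, KO library 2 and KO library 3, while Id3 overlapped at 1583, 1381 and 1958 against 1535, 2543 and 2167 FPKM. The inhibitory SMAD gene Smad7 rose (1.38, adjusted p = 0.0131).

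Of the nuclear-encoded subunits of the respiratory chain some fell and 0 rose, whereas none of the cytosolic ribosome passed the test. Of 36 complex I transcripts 10 fell (6 under quantile normalization, 14 with limma-voom, where 1 rose). Of 14 for complexes II and III 1 fell (3 with limma-voom), of 15 for complex IV 3 fell (5 with limma-voom), and of 15 for complex V 4 fell (6 with limma-voom). The median changes were −0.51, −0.41, −0.61 and −0.54. Of the 13 complex IV transcripts with at least 0.5 FPKM in both genotypes, 2 fell. Of 76 transcripts of the mitochondrial ribosome, 20 fell and 0 rose (median −0.34). Of the 76, 38 lay lower in every KO library than in any WT library, as did 24.1% of all 12205 transcripts. The 13 mitochondrially encoded transcripts had a median of −0.04, and 1 of them fell: mt-Nd3, from 15, 20.5 and 6.05 to 0.00, 1.74 and 3.00 FPKM (adjusted p = 0.0135, but 0.0594 without WT library 1). Of 80 transcripts for cytosolic ribosomal proteins, 0 rose and 0 fell (median −0.04, and −0.24 to 0.20 in the fits without 1 library). Of 39 for ribosome biogenesis 6 rose (15.4%, against 9.66% of all transcripts) and 0 fell (median 0.27). The tests behind these counts are those of limma over all transcripts. The median change went from −0.15 in the fifth of transcripts with the shortest exon length to 0.01 in the fifth with the longest, and the median exon length was 1643 bases in complex I, 1131 in complex IV and 1754 in the cytosolic ribosome; the part of exon length in these results was not tested.

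**Figure D3:**
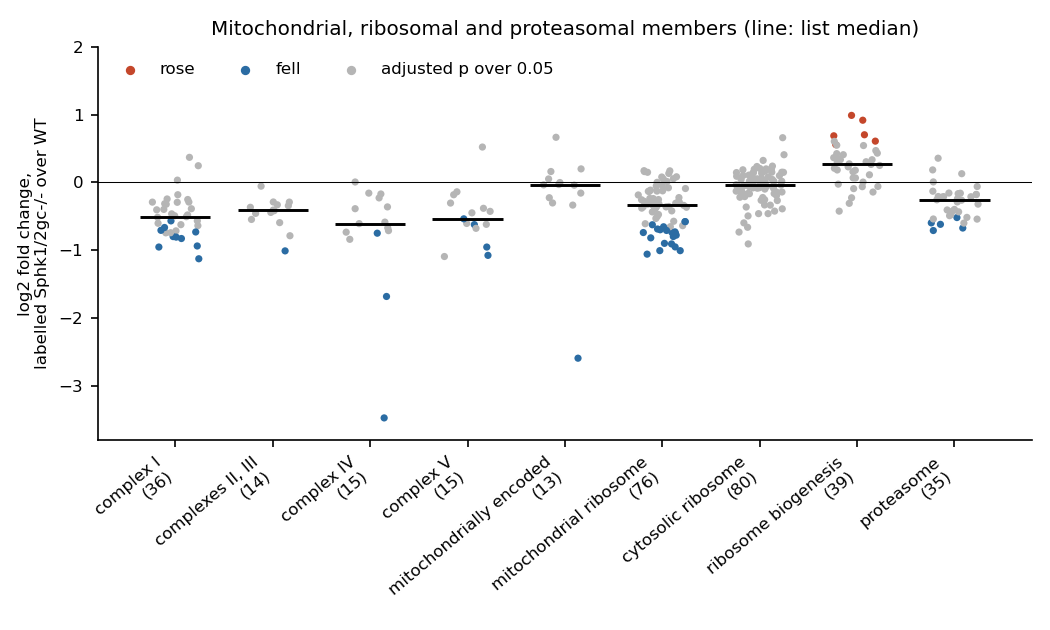
Log2 fold change (KO over WT) of each member of 9 gene lists, with members that rose in red, that fell in blue and the rest in grey; the black line is the list median and the number tested is in parentheses. The medians of nuclear-encoded complexes lie between −0.61 and −0.41, those of mitochondrially encoded transcripts and of the cytosolic ribosome at −0.04, and that of ribosome biogenesis at 0.27.

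Complex IV has alternative forms of its subunit 4. Cox4i2, the form induced at low oxygen, was at 92.6, 52.6 and 60.7 FPKM in WT against 5.12, 4.94 and 5.16 FPKM in KO, the largest fall on this scale among all 12205 transcripts (−3.48, SE 0.213, limma adjusted p = 0.000144). Cox4i1, the common isoform, was at 140, 133 and 133 FPKM against 60.7, 170 and 148 FPKM (−0.23, adjusted p = 0.661), with KO library 1 below and KO libraries 2 and 3 above WT. Ndufa4l2, chosen after its values were seen, had 51, 29 and 47 reads in WT and was listed at 0 in all 3 KO libraries. It entered the test through the WT mean alone, and its exons overlap those of Shmt2. Of 23 transcripts of the hypoxia response outside glycolysis, 2 rose and 5 fell (8.7% and 21.7%, against 9.66% and 12.7% of all transcripts). Bnip3, a mitophagy receptor, fell from 281, 221 and 195 to 83.2, 52.2 and 56.7 FPKM, whereas Vegfa rose (1.02, adjusted p = 0.0478, but 0.0821 to 0.151 without any 1 of the libraries other than KO library 1).

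Of 24 transcripts for fatty acid oxidation, 11 fell (7 under quantile normalization) and 1 rose, with a median change of −0.50. Hadh, of the third step of beta-oxidation, was at 45.9, 49.1 and 44.1 FPKM in WT against 23, 15.5 and 16.1 FPKM in KO (−1.33, SE 0.180, limma adjusted p = 0.00287). Acaa2 fell from 78.3, 84.7 and 78.3 to 48.6, 29.1 and 24.5 FPKM and Echs1 from 39.0, 40.7 and 37.4 to 21.7, 16.8 and 15.8 FPKM. KO library 1 was the closest to WT for all of these. Of 27 peroxisome transcripts 8 fell and 1 rose, among them Phyh, the phytanoyl-CoA hydroxylase (−1.17, adjusted p = 0.00355). Hao2, a peroxisomal oxidase, and Dbi, which binds acyl-CoA, were chosen after their values were seen and fell from 96.4, 93.2 and 115 to 36.7, 22.8 and 23 FPKM and from 286, 215 and 174 to 53.9, 68.2 and 63.2 FPKM. In lipid synthesis, 6 of 32 transcripts rose and 7 fell. Gpat3, which starts triglyceride synthesis, rose from 3.49, 2.88 and 4.73 to 27.3, 27.1 and 48.8 FPKM (2.88, SE 0.258), and the desaturases Scd1 and Fads1 and the carrier Fabp5 fell by 1.57, 1.31 and 1.42 on the log2 scale.

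Of 15 transcripts that handle retinoids and aldehydes, 8 fell and 2 rose, with a median change of −0.66. Aldh1a1, which makes retinoic acid, was at 30.3, 15.6 and 23.5 FPKM in WT against 5.23, 4.08 and 2.78 FPKM in KO (−2.24, SE 0.269, limma adjusted p = 0.00181). Its paralog Aldh1a7 fell from 18.3, 22 and 19.2 to 2.39, 1.35 and 1.74 FPKM and Adh1 from 9.15, 2.67 and 5.46 to 0.856, 1.13 and 0.584 FPKM. In the redox list 6 of 45 transcripts rose and 10 fell (13.3% and 22.2%, against 9.66% and 12.7% of all transcripts). Of the 43 with at least 0.5 FPKM in both genotypes, 6 rose and 8 fell. The secreted peroxidase Gpx3 rose from 9.59, 9.33 and 15.4 to 56.4, 55.7 and 71.6 FPKM and Gstm2 fell from 179, 153 and 139 to 64.6, 61.3 and 61.7 FPKM. Srxn1 was called higher but not without WT library 1 or 2 or KO library 3 (adjusted p of 0.0504 to 0.0687), and Txnip was called lower but not without WT library 1 or 2 or KO library 2 or 3 (0.0941 to 0.118). Of 36 transcripts for amino acid supply 10 rose and 1 fell. Gpt2, an alanine transaminase of mitochondria, rose from 3.07, 4.34 and 4.73 to 13.5, 21.2 and 24.3 FPKM. Glul, the glutamine synthetase, rose from 2.45, 2.41 and 3.24 to 10.4, 11.2 and 11.7 FPKM, and Shmt2, of mitochondrial serine metabolism, fell (−1.13, adjusted p = 0.00448).

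Of 48 transcripts for the actin cytoskeleton and contraction, 13 rose and 3 fell, with a median change of 0.45. Rnd3, a GTPase that loosens stress fibres, was at 6.66, 6.60 and 14.0 FPKM in WT against 48.1, 50.6 and 65.8 FPKM in KO (2.53, SE 0.278, limma adjusted p = 0.00136). Tpm1 rose from 19.7, 25.2 and 31.8 to 85.1, 114 and 125 FPKM and the cross-linker Actn1 from 2.91, 2.61 and 2.90 to 14.5, 13.2 and 11.9 FPKM. Actg1, for gamma-actin, and Ezr, which ties actin to the membrane, were chosen after their values were seen; they rose from 317, 273 and 299 to 522, 860 and 1418 FPKM and from 13.8, 15.3 and 21.6 to 42.7, 44.4 and 65.0 FPKM. Tnni3, cardiac troponin I, fell most of this list: it was at 556, 463 and 434 FPKM in WT against 59.4, 48.1 and 57.9 FPKM in KO (−3.11, SE 0.162, adjusted p = 6.83e-05). In adhesion, 7 of 28 transcripts rose and 1 fell, with Itga5, the fibronectin receptor subunit, going from 0.839, 0.288 and 1.01 to 6.90, 9.88 and 14.8 FPKM. Of the 26 adhesion transcripts with at least 0.5 FPKM in both genotypes, 5 rose and 1 fell. Of 30 transcripts for collagens and the basement membrane 8 rose and 3 fell. Of the 20 of these that reached 0.5 FPKM in both genotypes, 6 rose and 1 fell. Thbs1 rose from 188, 144 and 198 to 381, 578 and 684 FPKM and the cross-linking enzyme Lox from 6.90, 3.74 and 4.85 to 15.7, 25.9 and 20.6 FPKM, while Sparc fell (−1.12, adjusted p = 0.0118). Lmna, the nuclear lamin A, rose from 3.77, 6.29 and 10.8 to 31.8, 44.4 and 57.0 FPKM. The promoters of Rnd3 and Dusp5 are shown because both rose and both windows hold the CArG box, the site of serum response factor, in capitals.
Rnd3 (chr2:51149062-51149361, minus strand): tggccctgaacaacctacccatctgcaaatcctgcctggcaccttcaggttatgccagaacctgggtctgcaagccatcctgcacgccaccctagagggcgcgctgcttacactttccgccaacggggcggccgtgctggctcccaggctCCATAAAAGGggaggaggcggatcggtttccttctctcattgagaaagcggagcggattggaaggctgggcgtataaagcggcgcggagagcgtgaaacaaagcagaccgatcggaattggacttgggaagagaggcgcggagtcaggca
Dusp5 (chr19:53528895-53529194, plus strand): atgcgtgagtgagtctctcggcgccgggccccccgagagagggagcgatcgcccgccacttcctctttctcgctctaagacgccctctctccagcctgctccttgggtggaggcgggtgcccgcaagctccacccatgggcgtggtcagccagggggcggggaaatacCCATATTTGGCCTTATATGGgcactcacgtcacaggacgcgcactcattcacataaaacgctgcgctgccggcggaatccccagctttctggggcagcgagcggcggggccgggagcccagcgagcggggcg
The single match in Rnd3 begins at position −100 and Dusp5 holds 2 matches next to each other, and 1.63% of all windows hold one. A match is a feature of the letters, and no factor was measured on this DNA.

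Gal, the neuropeptide galanin, had the largest rise of all 12205 transcripts on the log2(FPKM + 1) scale, though not as a plain ratio of means, which was 42.3 for Gal and 110 for H2-Aa. Gal was at 5.93, 6.48 and 5.92 FPKM in WT against 109, 270 and 396 FPKM in KO (5.00, SE 0.404, limma adjusted p = 0.000473). Among 28 transcripts for peptide hormones and their receptors, 11 rose and 2 fell. Edn2, an endothelin that contracts the follicle wall at ovulation, rose from 0.850, 0.342 and 2.22 to 5.30, 7.61 and 13.4 FPKM, Ramp3, a co-receptor for adrenomedullin, from 0.675, 1.73 and 2.60 to 13.4, 11.1 and 29.1 FPKM, and Penk, chosen after its values were seen, from 5.66, 7.97 and 12.1 to 26.7, 47.6 and 49.2 FPKM. Nmb fell (−1.33, adjusted p = 0.00181) and Nppc, the precursor of C-type natriuretic peptide, overlapped at 37.3, 14.0 and 26.4 against 19.1, 37.0 and 34.2 FPKM. Of 35 growth factors and other ligands, 11 rose and 3 fell, and of the 25 with at least 0.5 FPKM in both genotypes 6 rose and 3 fell. Pdgfa rose from 1.43, 2.37 and 3.60 to 15.8, 34.5 and 38.4 FPKM, Metrnl from 7.13, 12.1 and 13.2 to 51.7, 62.2 and 59.7 FPKM, and the chemokine Cxcl1 from 36.2, 30.6 and 44.3 to 148, 145 and 146 FPKM. Il23a, the alpha subunit of interleukin 23, went from 12.3, 19.4 and 31.4 to 431, 252 and 403 FPKM (4.10, SE 0.335, adjusted p = 0.000476). Spp1 and Socs3 were chosen after their values were seen; the secreted phosphoprotein Spp1 rose from 61.7, 53.6 and 42.6 to 436, 231 and 353 FPKM and Socs3, an inhibitor of cytokine receptors, from 0.129, 0.423 and 0.177 to 1.85, 3.41 and 4.87 FPKM. Socs3 entered the test through the KO mean alone.

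In the Notch, Hippo and Hedgehog pathways, 11 of 24 transcripts rose and 1 fell, with a median change of 0.50. Of the 22 with at least 0.5 FPKM in both genotypes, 10 rose and 1 fell. The Notch ligand Jag1 rose from 1.2, 0.792 and 1.46 to 4.05, 8.99 and 9.34 FPKM and the co-activator Maml2 from 1.34, 1.42 and 1.38 to 11.2, 8.01 and 7.07 FPKM (2.01, SE 0.179, limma adjusted p = 0.000718). The Notch target Heyl rose too, from 26.1, 30 and 49.4 to 62.6, 119 and 144 FPKM, with an adjusted p of 0.0149 that was 0.064, 0.055 and 0.0576 without WT library 1, WT library 2 and KO library 3. Of the granulosa Hedgehog ligands, Dhh fell (−1.23, adjusted p = 0.00563) and Ihh, chosen after its values were seen, rose (1.47, adjusted p = 0.00584). In the Wnt pathway 7 of 20 transcripts rose and 0 fell, with a median of 0.42, among them the transcription factor Tcf7l2 (4.41, 4.28 and 4.67 against 12.3, 20.4 and 19.9 FPKM) and the secreted Dkk3 and Dkkl1 (1.69 and 2.00). Of the 17 Wnt transcripts with at least 0.5 FPKM in both genotypes, 6 rose and 0 fell. Sox9, a factor of the male gonad that was chosen after its values were seen, was at 0.285, 0.0135 and 0.207 FPKM in WT against 2.02, 3.85 and 4.41 FPKM in KO. It entered the test through the KO mean alone.

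**Figure D4:**
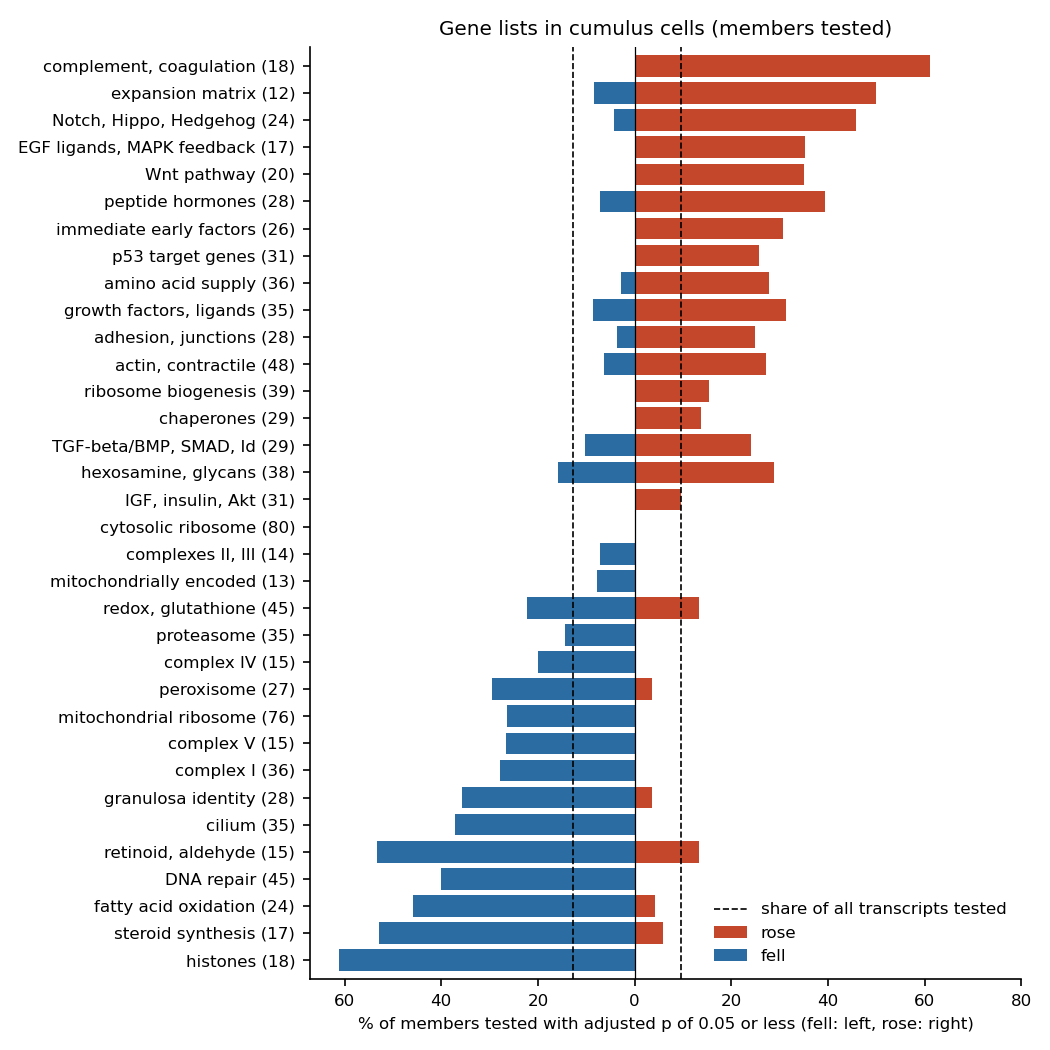
Share of the members tested that rose (red, right) or fell (blue, left) at an adjusted p of 0.05 or less in 34 gene lists, in percent, with the number tested in parentheses. Members tested include those that reached 0.5 FPKM through the mean of a single genotype. Dashed lines mark the shares over all transcripts, 9.66% for those that rose and 12.7% for those that fell; among the lists shown, which leave out MHC genes, complement and coagulation (61.1%) and the expansion matrix (50%) have the largest shares that rose, and histones (61.1%), retinoid and aldehyde (53.3%) and steroid synthesis (52.9%) the largest that fell. The rank of the expansion matrix rests on members that entered through the KO mean alone. With at least 0.5 FPKM in both genotypes, 4 of its 10 members rose, against 10 of 22 for Notch, Hippo and Hedgehog and 10 of 23 for peptide hormones.

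Of 31 target genes of p53, 8 rose and 0 fell, with a median change of 0.40. Cdkn1a, an inhibitor of cyclin-dependent kinases, was at 11.1, 8.56 and 17.1 FPKM in WT against 30.8, 53.4 and 51.1 FPKM in KO (1.81, SE 0.286, limma adjusted p = 0.00497), and Trp53inp1 and Gadd45a rose by 1.74 and 1.56. In the BCL2 and caspase list 3 of 29 rose and 2 fell (10.3% and 6.9%, against 9.66% and 12.7% of all transcripts). The pro-apoptotic Bcl2l11 was among those that rose (1.19). Among 29 chaperones 4 rose (13.8%) and 0 fell, with Hsph1 going from 15.2, 16.4 and 19.2 to 50.7, 42.7 and 50.2 FPKM and Dnajb1 from 42.0, 51.9 and 81.4 to 175, 128 and 145 FPKM.

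The primary cilium is a sensory antenna that many resting cells carry. Of 35 of its transcripts 13 fell (8 under median scaling) and 0 rose, with a median change of −0.46. Of the 35, 24 lay lower in every KO library than in any WT library, as did 24.1% of all 12205 transcripts. Cep290, of the transition zone, was at 5.53, 5.42 and 4.34 FPKM in WT against 2.29, 1.81 and 1.45 FPKM in KO (−1.10, SE 0.167, limma adjusted p = 0.00428). Arl6 and Ift74, of ciliary transport, fell by 1.00 and 1.03 on the log2 scale, with adjusted p of 0.0562 and 0.0597 without WT library 1 and, for Arl6, 0.0512 without KO library 3. In lists that stand close to the cell cycle, 18 of 45 DNA repair transcripts and 11 of 18 histone transcripts fell, and 0 of either rose. Of the 8 histone transcripts with at least 0.5 FPKM in both genotypes, 5 fell. Reads of histone genes are split among near-identical copies, so single members are uncertain.

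Of 18 complement and coagulation transcripts tested 11 rose and 0 fell, and of the 13 with at least 0.5 FPKM in both genotypes 8 rose. Serping1, the C1 inhibitor, was at 3.18, 1.08 and 1.44 FPKM in WT against 15.3, 16.9 and 16.1 FPKM in KO (2.62, SE 0.25, limma adjusted p = 0.000847), and the anticoagulant Pros1 at 26.4, 31.9 and 38.9 against 120, 119 and 113 FPKM. Of 16 MHC class I transcripts 13 rose and 1 fell. Of the 15 with at least 0.5 FPKM in both genotypes, 12 rose and 1 fell. Of 11 MHC class II transcripts listed 6 were tested, and 4 of them entered the test through the KO mean alone, so that their rise is no count in support of the group; the 2 with at least 0.5 FPKM in both genotypes rose. The levels of class II genes were low in WT, as for H2-Aa (0.331, 0.178 and 0.122 against 21.8, 16.7 and 31.0 FPKM) and H2-Eb1 (1.21, 0.705 and 0.529 against 34.4, 35.9 and 43.6 FPKM). Cd74, their invariant chain, was listed at 0 in all 3 WT libraries and had 117, 51 and 183 reads in KO. H2 genes are alike in sequence and differ between mouse strains, so reads may be divided among them in a way that differs with the strain. The 12 macrophage markers summed to 4.27 to 39.8 FPKM in WT against 14.5 to 76.0 in KO, 5 of the 7 tested rose (2 of the 4 with at least 0.5 FPKM in both genotypes), and Adgre1, Csf1r, Tyrobp and Aif1 were under 0.5 FPKM in every library. The 8 leukocyte markers summed to 1.6 to 2.33 FPKM in WT against 3.58 to 8.22 in KO, with Ptprc under 0.5 FPKM throughout. The part of such cells in these results was not tested.

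The 8 neutrophil markers summed to 2.94 to 24.5 FPKM in WT against 0.240 to 1.11 in KO, and the 5 erythroid markers to 4.37 to 27.0 against 0.3 to 1.78 FPKM. S100a9 and Alas2 were chosen after their values were seen, and both entered the test through the WT mean alone. S100a9 was at 11.7, 2.34 and 1.75 FPKM in WT and at 0.00, 0.194 and 0.00 FPKM in KO. Its limma adjusted p was 0.0179, and 0.0632 without KO library 3. Alas2, for the first enzyme of heme synthesis in red cells, was at 4.39, 4.03 and 4.41 against 0.641, 0.358 and 0.0434 FPKM. Among the other markers, S100a8 did not overlap between genotypes, whereas Hba-a1, Hbb-bs and Hbb-bt did. Hba-a1 was at 12.9, 0.274 and 8.98 FPKM in WT against 0.131, 0.561 and 0.257 FPKM in KO. Camp was highest in KO library 3, at 0.963 FPKM.

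Of 9 transcripts of S1P synthesis, breakdown and reception 3 rose and 0 fell, with Plpp3, a phosphatase that acts on S1P, at 18.0, 8.52 and 13.1 FPKM in WT against 24, 25.6 and 30.8 FPKM in KO (1.02, limma adjusted p = 0.0238, but 0.0561 to 0.0885 without WT library 2 or 3 or KO library 2 or 3). The receptor S1pr1 was at 0.816, 0.219 and 0.579 against 1.01, 0.399 and 0.719 FPKM. Of 25 transcripts of ceramide and sphingolipid metabolism 7 rose and 2 fell, and Sgms2, a sphingomyelin synthase, went from 6.19, 5.14 and 6.65 to 18.3, 14.7 and 18.8 FPKM (1.38, SE 0.163, adjusted p = 0.00172). Pln, an inhibitor of the calcium pump Atp2a2, had 1, 2 and 0 reads in WT and 2, 2 and 1 in KO, all under the floor of 3 reads, so that a difference was not detectable at this depth. Atp2a2 itself was at 44.2, 43.5 and 51.6 FPKM in WT against 52.3, 54.6 and 68.4 FPKM in KO (0.32, adjusted p = 0.188).

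Of 31 transcripts for IGF and insulin signaling 3 rose (9.68%) and 0 fell. For the proteasome, 0 of 35 rose and 5 fell (14.3%, and 10 members with limma-voom). For splicing, 1 of 57 rose and 4 fell (7.02%, and 7 members with limma-voom), and of 38 for the Golgi 3 rose (7.89%) and 1 fell. Over all 12205 transcripts 9.66% rose and 12.7% fell.

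Other large changes belong to none of these groups. BC002163, annotated as a processed pseudogene on chromosome 16 (42955631 to 42955949), rose from 3.89, 4.53 and 2.68 to 105, 159 and 132 FPKM (4.82, SE 0.215, limma adjusted p = 4.44e-05). A pseudogene shares sequence with its parent gene, so its reads are uncertain. Arl4d, a small GTPase, rose from 0.449, 0.242 and 0.206 to 4.57, 21.2 and 12.3 FPKM, Sprr1a, of the cornified envelope, from 1.08, 1.52 and 1.84 to 11.5, 14.4 and 33.7 FPKM, and Fam196a from 9.81, 11.2 and 11.4 to 99.3, 83.3 and 72.6 FPKM. Arl4d entered the test through the KO mean alone. Zpld1, a zona pellucida-like protein, fell from 85.2, 58.8 and 114 to 11.7, 8.11 and 4.39 FPKM and the cystatin Cst8 from 27.3, 21 and 22.6 to 1.62, 4.57 and 3.18 FPKM. Near the altered loci, 10 of 125 transcripts within 5 Mb of Sphk1 were called higher and 5 lower (12.0%), and 2 and 1 of 80 within 5 Mb of Sphk2 (3.75%), against 8.03% of the 12000 elsewhere.

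**Figure D5:**
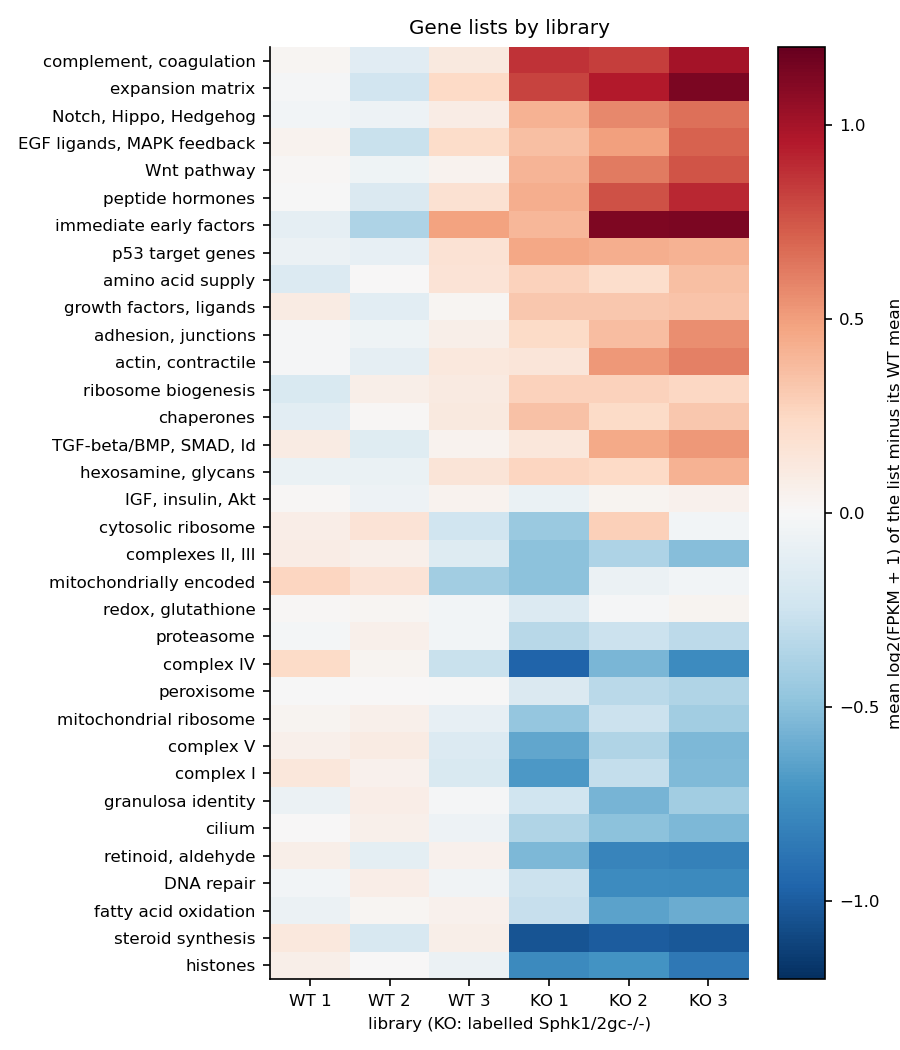
Mean log2(FPKM + 1) of the members of 34 gene lists in each library, minus the mean of that list over the 3 WT libraries; red is higher and blue lower, in log2 units. The steroid synthesis list lies between −1.04 and −1.0 in the KO libraries and between −0.20 and 0.12 in the WT libraries, while the cytosolic ribosome lies at −0.44 in KO library 1 and 0.29 in KO library 2.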

How the data were processed

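RNA of cumulus cells was sequenced after library preparation with a kit that does not mark strand, so overlapping genes cannot be told apart. The authors deposited FPKM values; the processing notes name HISAT2 and GRCm38, and the counting tool, annotation and settings are not given in the sources used here. The authors' own comparisons (fold changes, p-values) were not used, and 0 per-sample columns were left unused. Genes were named and placed by GENCODE M21, which lacks 66 of the 33137. FPKM times exon length gave whole multiples of 1 read for 90.6% to 92.1% of values above 0 (tolerance 0.02 reads); these recovered reads give the depth, which covers counting error only.

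WT and KO cumulus libraries were compared with limma 3.58.1 (variance trend) in R 4.3.3 on log2(FPKM + 1), keeping transcripts whose WT or KO mean reached 0.5 FPKM. Calls needed an adjusted p (Benjamini-Hochberg) up to 0.05 together with a fold change of at least 2. Of the transcripts tested, 838 passed the filter only through the WT mean and 761 only through the KO mean. With at least 0.5 FPKM in both genotypes, 10 rose and 6 fell of 36 hexosamine members. These counts were 6 and 3 of 26 for SMAD and 10 and 2 of 23 for peptide hormones. For lipid synthesis they were 5 and 6 of 28, and for prostaglandins 1 and 1 of 13. They were 2 and 7 of 13 for retinoids and 2 and 4 of 22 for hypoxia. For cilium they were 0 and 12 of 29 and for actin 13 and 2 of 46. Those for IGF and the Golgi were 2 and 0 of 27 and 2 and 1 of 37. The fit was tested on simulated data. Genes named are fixed key genes of each list, up to 3 called members a direction and list with a mean of at least 2 FPKM, and the 15 largest non-overlapping changes a direction with at least 5 FPKM outside the lists left aside; others are marked. The members and lists were chosen with earlier results of these data known. Lists were counted, not tested. Promoter windows are those of RefSeq, matched by symbol for 8286 of the transcripts tested. Alternatives were other pseudocounts, filters, scalings, a fit without trend, a replicate block, each library left out and limma-voom on the recovered reads, which was added after the data were seen. Some single-gene results are not reported here.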

Additional observations from a re-analysis of the deposited data

How the results depend on the processing

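Leaving out each library in turn gave 391 to 651 transcripts called higher and 350 to 654 called lower, and without the fold limit 588 to 1733 higher and 684 to 2197 lower; the ends were the fits without WT library 1, KO library 3 and KO library 1, and fewer libraries enter each of these fits. A pseudocount of 0.1 FPKM gave 825 higher and 849 lower, a fold limit of 1.5 gave 1042 and 1324, and limma-voom on the recovered reads, chosen after seeing the data, gave 927 and 1038. With no filter, 548 were higher and 692 lower without the fold limit over 30985 transcripts. The cause of the differences with the pseudocount and with limma-voom was not tested. The WT and KO libraries of the same number share only that number: the correlations of their deviations from the genotype means were −0.148, −0.0511 and 0.115. With the number as a replicate block, 506 were called higher and 456 lower, and 913 and 1084 passed without the fold limit. No other setting moved these 4 counts by over 1.5 times. Among transcripts that did not pass the test, the log2 fold change took the other sign at a pseudocount of 0.1 for Ereg (0.00084), under median scaling for Ereg (0.05), Esr2 (0.0035), Npr2 (0.05) and Ptgs2 (0.01), and under quantile normalization for Areg (0.01), Ereg (0.07), Esr2 (0.03), Npr2 (0.06) and Ptgs2 (0.07). Over the fits without 1 library it ranged on both sides of 0 for Amh (−0.21 to 0.67), Areg (−0.43 to 0.12), Cox4i1 (−0.51 to 0.23), Egr1 (−0.53 to 0.08), Ereg (−0.37 to 0.27), Esr2 (−0.14 to 0.06), Gja1 (−0.16 to 0.02), Nppc (−0.11 to 0.56), Npr2 (−0.08 to 0.07), Ptgs2 (−0.34 to 0.15), S1pr1 (−0.0021 to 0.29), Sphk2 (−0.0047 to 0.14) and Star (−0.34 to 0.36). Among lists with few calls, limma-voom also gave 3 in place of 1 that fell for amino acid supply, 5 and 4 in place of 3 and 2 that rose and fell for BCL2 and caspases, 12 and 5 in place of 8 and 3 for collagens, and 2 in place of 0 that fell for IGF and insulin.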
